A study of Mus musculus with 4 samples.

Results

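The Notch pathway was followed in cultured mouse neural stem cells through 10 genes: the receptors Notch1, Notch2 and Notch3, the ligands Dll1, Dll3 and Jag1, the nuclear DNA-binding factor Rbpj, and the target genes Hes1, Hes5 and Hey1. A gene was counted as a member when an entry of the deposited read-count table ended in its Ensembl identifier in GENCODE M21. By this rule 7 of the 10 had gene-named entries, among 14949 genes named in the table. Notch1, Notch2 and Dll3 had none, and reads at these 3 loci were found only in entries named by a chromosome position.

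Notch receptors are membrane proteins that are cut when a neighbouring cell presents a Delta-like or Jagged ligand. The freed intracellular part of the receptor enters the nucleus, joins RBPJ and a Mastermind-like coactivator, and switches on HES and HEY genes, whose products repress proneural genes. In the embryonic neocortex the pathway is known for keeping neural stem cells undifferentiated.

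The cells were primary cultures from embryonic neocortices of floxed mouse embryos, grown with bFGF and EGF, and were given lipid nanoparticles (LNP) for 3 days. Tut1f/f cells given an empty LNP were the control. Tut1f/f, Trp53f/f (p53f/f in the labels) and Tut1f/f;Trp53f/f cells were each given an LNP with Cre mRNA, and are called here Tut1f/f;Cre, Trp53f/f;Cre and, for the double-floxed cells, Tut1f/f;Trp53f/f;Cre. Each of the 4 groups was 1 library of Nanopore long reads from PCR-amplified cDNA, so the control shares the floxed Tut1 allele with 2 of the others, and every comparison with the control rests on the same single library.

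The libraries held 3936827 to 5125888 reads, of which 2863392 to 4244467 were in gene-named entries. Tut1 had 37, 11, 14 and 27 reads in the order control, then Tut1f/f;Cre, then Trp53f/f;Cre and finally Tut1f/f;Trp53f/f;Cre (the order of every run of 4 values below), and Trp53 had 175, 67, 10 and 19. Cre removes exon 2 from the Tut1 transcript, and a count over the whole gene does not single out that exon, so the Tut1 counts do not check the deletion. As counts over the gene they were not ordered by the labels of the last 2 libraries, which are named below as the libraries labelled as Trp53f/f;Cre and as Tut1f/f;Trp53f/f;Cre. Xist had 0, 44, 49 and 0 reads and the Y-linked gene Eif2s3y 155, 0, 0 and 60, so the cultures also differed in sex-linked transcripts. Of 8 neural stem and progenitor markers 7 were in the table, and their summed level was 1660, 1581, 1457 and 1178 CPM (counts of gene-named reads scaled to a common depth with TMM factors). Vim was the largest part of that sum in each library, at 1253, 763, 632 and 612 CPM. Nes, Sox2, Pax6, Sox9 and Emx2 were each above the control in all 3 other libraries (Sox2 at 210, 382, 395 and 266 CPM, Nes at 138, 308, 295 and 196 CPM). Prom1 was low, at 4.98, 2.99, 4.98 and 4.0 CPM. None of the 5 microglia or 4 endothelial markers had a gene-named read in any library. The oligodendrocyte-lineage list summed to 351, 589, 689 and 467 CPM, led by Olig2, and the astrocyte list to 111, 63.1, 56.8 and 87.7 CPM, of which Aldh1l1 made up 46.6, 5.32, 3.22 and 23.7 CPM. The part of these differences in the values below was not tested.

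RBPJ binds DNA at a short motif of the form GTGGGAA, with TGGGAA as its core, and the promoter of Hes5 is shown because it held the longer motif where the other members' windows did not. RefSeq windows on GRCm38.p6, from 250 bases before to 50 bases after the start, were matched for 8 of the 10 members in 10 windows. Hes1 and Hey1 were not matched. Both strands were searched. The Hes5 window, on the plus strand of chr4:154960673-154960972, held GTGGGAA on each strand, and the matches are in capitals:
Hes5: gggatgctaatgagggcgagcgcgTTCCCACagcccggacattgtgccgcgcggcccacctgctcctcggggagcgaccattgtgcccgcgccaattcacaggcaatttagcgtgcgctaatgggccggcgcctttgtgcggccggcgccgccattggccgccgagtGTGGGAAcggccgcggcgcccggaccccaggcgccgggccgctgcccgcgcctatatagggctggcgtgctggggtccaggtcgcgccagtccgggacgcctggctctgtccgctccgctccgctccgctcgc
The core lay at -226 on the minus strand and at -82 on the plus strand, counted from 0 at the start base. Of 27025 genes with a window, 1958 (7.25%) held GTGGGAA on either strand, and 7651 (28.3%) held TGGGAA, which every GTGGGAA contains. Rbpj was the only other member with the core, at these stretches of chr5:53590185-53590214 and chr5:53590269-53590298, both given on the plus strand with the core in capitals:
Rbpj, first: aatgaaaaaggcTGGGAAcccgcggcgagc
Rbpj, second: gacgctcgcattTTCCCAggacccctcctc
A match is a description of the letters in the window.

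Among the 7 members with gene-named reads, Hes1 was higher in each of the 3 libraries with Cre mRNA than in the control, and Hes5 and Hey1 were not called different in any of them. Hes1 (ENSMUSG00000022528, chromosome 16 from 30064384 to 30067796, plus strand) encodes a bHLH repressor and is the classical Notch target in neural stem cells. It had 594 reads in the control, 1513 in the Tut1f/f;Cre library, 1586 in the library labelled as Trp53f/f;Cre, and 1334 reads in the library labelled as Tut1f/f;Trp53f/f;Cre. On the scaled level these were 148, 503, 464 and 445 CPM. The control stood alone at the low end, and the 3 libraries with Cre mRNA lay close to each other. The control also stood apart in the rRNA gene CT010467.1, which held 18.7%, 9.75%, 8.91% and 5.46% of gene-named reads. With that gene left out, the edgeR fit of the Cre mRNA libraries against the control gave Hes1 a log2 fold change of 1.67. This alternative was added after seeing the data. TMM scaling offsets the removal of a single gene, so the value could hardly move. The part of library makeup in the Hes1 value was not tested.

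For each pair of libraries the log2 ratio of TMM-scaled CPM was computed with an exact 95% interval, which covers no more than counting error, since reads amplified by PCR and lacking molecular identifiers can be copies of 1 molecule. A gene was called when the ratio was at least 2-fold and the interval excluded no change. Hes1 was 3.40-fold higher in Tut1f/f;Cre than in the control (log2 1.76, interval 1.63 to 1.90). The ratio was 3.14-fold (log2 1.65, interval 1.51 to 1.79) in the library labelled as Trp53f/f;Cre. It was 3.01-fold (log2 1.59, interval 1.45 to 1.73) in the library labelled as Tut1f/f;Trp53f/f;Cre. Between the latter 2 libraries the log2 ratio was -0.06 (interval -0.17 to 0.04), so at this depth a difference of 2-fold lay outside the interval.

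**Figure D1:**
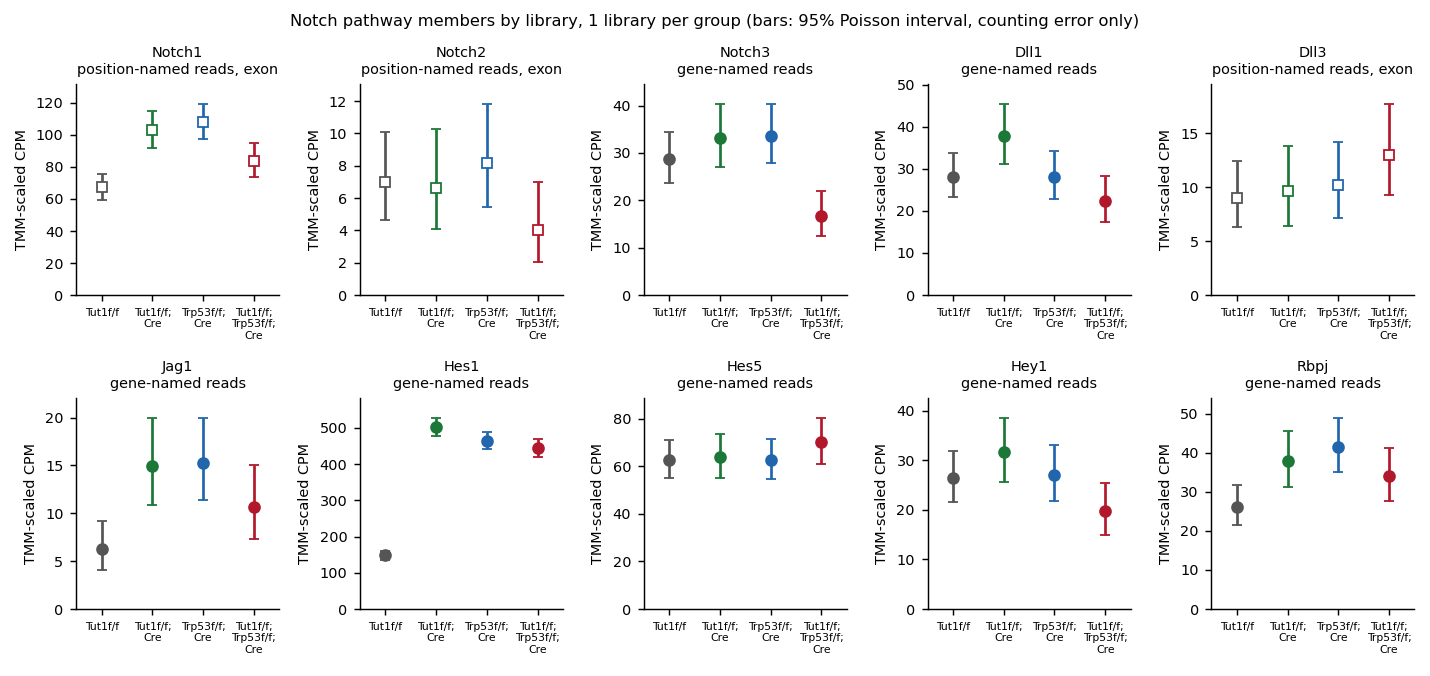
Level of each of the 10 genes in the 4 libraries, in TMM-scaled CPM on axes that start at 0. Filled circles are gene-named reads, open squares are position-named reads with the leftmost kilobase on an exon, and bars are 95% Poisson intervals. Hes1 rose from 148 CPM in the control to between 445 and 503 CPM, while Hes5 stayed between 62.6 and 70.3 CPM.

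The 3 libraries with Cre mRNA were also set against the control in 1 edgeR quasi-likelihood fit over the 4 libraries, in which the lone control is assumed to vary like the others. A gene was called at an adjusted p under 0.05 with at least a 2-fold change. Of 9882 genes tested, 831 (8.41%) were called higher and 845 (8.55%) lower. Hes1 was the only member called, with a log2 fold change of 1.67 (SE 0.219, edgeR adjusted p = 0.000509). Of the 7 neural stem and progenitor markers in the same fit 2 were called higher and 0 lower, with a median log2 fold change of 0.95. The 2 were Sox9 (1.16, edgeR adjusted p = 0.0132) and Emx2 (1.26, edgeR adjusted p = 0.0270). Vim lay the other way at -0.91 (edgeR adjusted p = 0.00543), under the 2-fold threshold, and Prom1 at -0.31 (edgeR adjusted p = 0.699). The part of the markers in the Hes1 value was not tested. DESeq2 gave Hes1 a log2 fold change of 1.65 (adjusted p = 1.2e-08). Without the library labelled as Trp53f/f;Cre the log2 fold change was 1.68 with an edgeR adjusted p = 0.0988, and the fit then called 0 of the 9882 genes (2693 at an unadjusted p under 0.05). The SE of Hes1 was then 0.208, and the total degrees of freedom of the test, which include those borrowed across genes, were 4.26 against 13.2 with all 4 libraries; the cause of the lost calls was not tested. Leaving out Tut1f/f;Cre gave 1.61 (edgeR adjusted p = 9.68e-05) and leaving out the library labelled as Tut1f/f;Trp53f/f;Cre gave 1.70 (edgeR adjusted p = 2.10e-15), both from fits with 9882 total degrees of freedom, so the adjusted p values of these fits are not on an equal footing. The loss of a floxed gene, the Cre mRNA cargo and differences between the cultures cannot be told apart in this comparison, nor can more cells of a type and more RNA per cell.

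Hes5 (ENSMUSG00000048001, chromosome 4), another HES repressor of cortical progenitors and the gene whose promoter is printed above, had 252, 192, 214 and 211 reads. Its scaled level was 62.8, 63.8, 62.6 and 70.3 CPM. The ratios to the control had log2 values of 0.02 (interval -0.25 to 0.30), 0.00 (interval -0.27 to 0.27) and 0.16 (interval -0.11 to 0.43), and all 3 intervals lay inside a 2-fold change. Hey1 (ENSMUSG00000040289, chromosome 3), a related repressor, had 106, 95, 92 and 59 reads, or 26.4, 31.6, 26.9 and 19.7 CPM. It was lowest in the library labelled as Tut1f/f;Trp53f/f;Cre, where the log2 ratio to the control was -0.42 (interval -0.91 to 0.05). In the fit over the 4 libraries the log2 fold change was 0.06 for Hes5 (SE 0.244, edgeR adjusted p = 0.883) and -0.02 for Hey1 (SE 0.320, edgeR adjusted p = 0.976).

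Jag1, a ligand, was the other member above the threshold of 2-fold in single comparisons. Jag1 (ENSMUSG00000027276, chromosome 2) had 25 reads in the control, 45 in the Tut1f/f;Cre library, 52 in the library labelled as Trp53f/f;Cre, and 32 reads in the library labelled as Tut1f/f;Trp53f/f;Cre, or 6.23, 15.0, 15.2 and 10.7 CPM. The first ratio was 2.40-fold (log2 1.26, interval 0.53 to 2.03) and the second 2.44-fold (log2 1.29, interval 0.57 to 2.04). The third was 1.71-fold, with an interval that included no change (log2 -0.02 to 1.59). In the edgeR fit Jag1 had a log2 fold change of 1.13 (SE 0.408, adjusted p = 0.0660) and was not called, and with library totals in place of TMM it passed (1.23, edgeR adjusted p = 0.0476). It also passed without the library labelled as Tut1f/f;Trp53f/f;Cre (1.26, edgeR adjusted p = 0.00643). It did not pass without Tut1f/f;Cre (1.05, edgeR adjusted p = 0.168) or without the library labelled as Trp53f/f;Cre (1.04, edgeR adjusted p = 0.192). Dll1 (ENSMUSG00000014773, chromosome 17), the Delta-like ligand of differentiating progenitors, had 113, 114, 96 and 67 reads, or 28.1, 37.9, 28.1 and 22.3 CPM. Its highest level was in Tut1f/f;Cre, 1.35-fold the control (log2 0.43, interval 0.04 to 0.82), which is under the 2-fold threshold.

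The receptor Notch3 (ENSMUSG00000038146, chromosome 17) was low in 1 library. It had 115 reads in the control, 100 in the Tut1f/f;Cre library, 115 in the library labelled as Trp53f/f;Cre, and 50 reads in the library labelled as Tut1f/f;Trp53f/f;Cre, or 28.6, 33.2, 33.7 and 16.7 CPM. The last library was the lowest and its interval did not overlap those of the other 3. Its ratio to the library labelled as Trp53f/f;Cre was 0.495 (log2 -1.01, interval -1.52 to -0.52), just past the threshold. The ratio to Tut1f/f;Cre was 0.502 (log2 -0.996, interval -1.52 to -0.49) and the ratio to the control 0.582 (log2 -0.78, interval -1.29 to -0.29), both not called.

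Rbpj (ENSMUSG00000039191, chromosome 5), the DNA-binding partner of the cut receptor, had 105, 114, 142 and 102 reads, or 26.2, 37.9, 41.6 and 34.0 CPM. The control was lowest, and the log2 ratios to it were 0.53 (interval 0.14 to 0.93), 0.67 (interval 0.29 to 1.05) and 0.38 (interval -0.03 to 0.79). None reached 2-fold, and the edgeR fit gave 0.53 (SE 0.286, adjusted p = 0.202). Rbpj has processed pseudogenes elsewhere in the genome that could exchange reads with it. Only Rbpj-ps3 was looked up, and it had 0 gene-named reads in every library. Position-named reads at the pseudogenes were not counted, so an exchange of reads was not tested.

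**Figure D2:**
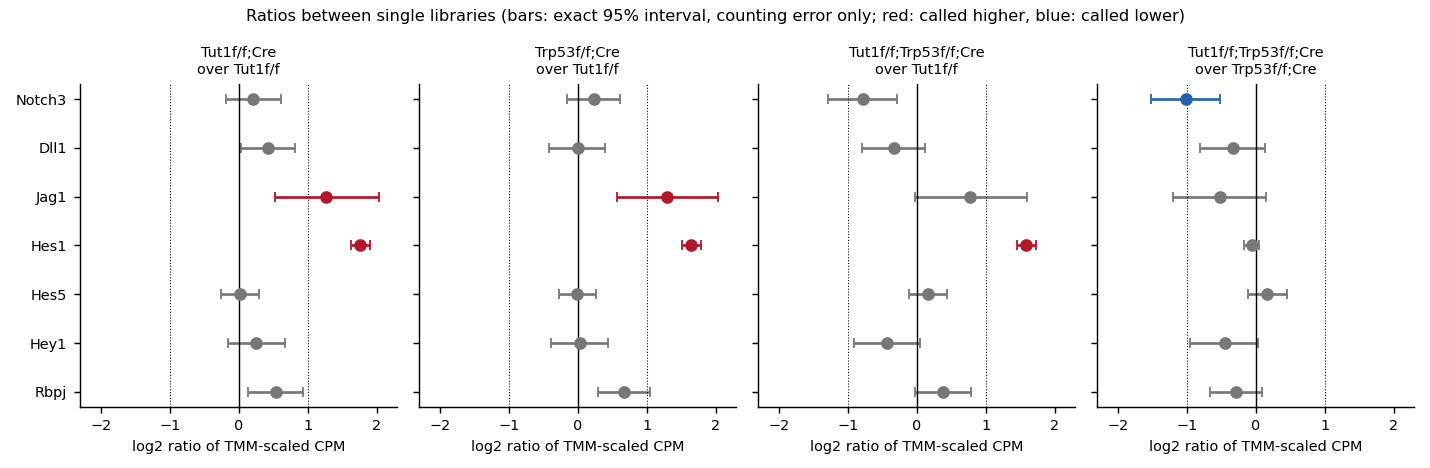
Log2 ratio of TMM-scaled CPM for the 7 members with gene-named reads in 4 comparisons of single libraries, with exact 95% intervals for counting error. Dotted lines mark a 2-fold change. Hes1 was called higher in the first 3 panels, Jag1 in the first 2, and Notch3 lower in the fourth.

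The members' counts stand against a background in which many genes passed the same rule. The medians below are of log2 ratios with a pseudocount of 0.5 CPM on each side, so they differ slightly from the ratios above. In Tut1f/f;Cre over the control 2 of 7 members were called higher and 0 lower, against 13.1% and 12.8% of all genes, and the members' median log2 ratio was 0.42 against 0.02 for all genes. In the library labelled as Trp53f/f;Cre over the control 2 of 7 were called higher and 0 lower, against 13.2% and 14.3%, with a median of 0.23 against 0.02. In the library labelled as Tut1f/f;Trp53f/f;Cre over the control 1 of 7 was higher and 0 lower, against 10.1% and 9.94%, with a median of 0.16 against -0.02. In the library labelled as Tut1f/f;Trp53f/f;Cre over that labelled as Trp53f/f;Cre 0 of 7 were higher and 1 lower, against 4.07% and 3%, with a median of -0.32 against -0.02. In this last pair the log2 ratio was above 0 for 1 of the 7 members, Hes5, and for 4795 of the 9882 genes. With 7 genes these shares are counts and carry no test of the list.

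The libraries were made to look for mRNA splicing that depends on Tut1, which encodes the enzyme that adds uridines to U6 snRNA, with the joint loss of Trp53 as a control for the effects of cell death. An edgeR fit with additive terms for Tut1 status and for Trp53 status, with 1 residual degree of freedom, called 0 genes for Tut1 status (0%; 171 had an unadjusted p under 0.05), and 0 were called by DESeq2 (70 had an unadjusted p under 0.05). For Trp53 status edgeR called 1 gene (0.0101%; 147 had an unadjusted p under 0.05), which was no member, and DESeq2 called 1. Hes1 had a log2 fold change of 0.85 for Tut1 status (SE 0.446, edgeR adjusted p = 1) and of 0.73 for Trp53 status (SE 0.445, edgeR adjusted p = 0.9998). The other 6 members lay between -0.39 and 0.36 for Tut1 status and between -0.38 and 0.39 for Trp53 status. Directions by Tut1 status rest on labels that the Tut1 counts do not check.

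Among the 7 members with gene-named reads, nearly all of those reads came from 1 entry per gene in every library. Hes1 reads were in a variant of ENSMUST00000023171, the protein-coding transcript, which held 592 of 594 reads in the control and 1509, 1574 and 1333 in the others. A shorter non-coding Hes1 transcript, ENSMUST00000160592, had 2, 4, 12 and 1 reads, or 0.337%, 0.264%, 0.757% and 0.0750% of the gene. Dll1 reads came from ENSMUST00000014917, with 112, 112, 95 and 64 reads, and the retained-intron transcript ENSMUST00000140784 had 0, 1, 0 and 1. Rbpj reads came from ENSMUST00000113865, with 101, 109, 137 and 96 reads, and a variant of it had 4, 5, 5 and 6. Notch3 and Jag1 were each represented by a single isoform named by a read, Hes5 by ENSMUST00000049621 and Hey1 by ENSMUST00000042412.

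Isoform usage, the percent of a gene's reads held by 1 isoform, was compared between libraries with Fisher's exact test on reads, which compares those libraries and not the conditions. It was called at an adjusted p under 0.05 where the percentages differed by 10 points or more. Only Dll1, Hes1 and Rbpj had more than 1 gene-named isoform and could be compared, and none of their isoforms was called in any of 4 comparisons. The share of all isoforms called was 8.66% for Tut1f/f;Cre against the control, 9.12% for the library labelled as Trp53f/f;Cre against the control, 6.49% for the library labelled as Tut1f/f;Trp53f/f;Cre against the control and 1.24% for the last 2 against each other. The widest member difference was 3.59 percentage points, for ENSMUST00000014917 of Dll1, which was lower in the library labelled as Tut1f/f;Trp53f/f;Cre than in the control.

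Entries named by position gave the only reads at Notch1, Notch2 and Dll3, and these reads were not part of the scaling or of the gene counts. How these entries were named is not given in the sources used here. Their coordinate was taken to be the leftmost base of the alignment rounded down to 1000 bases, and every exonic or intronic assignment here rests on that reading. It was read from where such entries lie next to 3′ ends of minus-strand genes: 831 entries of at least 50 reads lay in the 1000 bases to the left of an end and 178 and 212 in the neighbouring stretches. An entry was assigned to a gene by that leftmost kilobase. Counting entries that touched an exon and no other gene, 2202 protein-coding genes had reads in such entries and no gene-named entry.

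At Notch1 (ENSMUSG00000026923, chromosome 2 from 26457903 to 26516663, minus strand), a main receptor of cortical progenitors, exon-touching entries held 270, 310, 369 and 252 reads, or 67.3, 103, 108 and 84.0 CPM. The control was the lowest. The log2 ratios to it were 0.62 (interval 0.38 to 0.86), 0.68 (interval 0.45 to 0.92) and 0.32 (interval 0.07 to 0.57), all under 2-fold. Exonic position-named reads of all single-gene loci together had log2 ratios to the control of 0.87, 0.89 and 0.65, above the Notch1 value each time, and held 5.39% of the control's reads and 8.90%, 9.02% and 8.26% of the others. Of 9378 genes with at least 20 such reads over the 4 libraries, 45.2% stood above the control in at least 1 library with Cre mRNA by 95% Poisson intervals that do not overlap, and so did 4 of 6 members (Notch1, Notch3, Hes1 and Rbpj). The part of this library-wide shift in the Notch1 values was not tested. Most of these reads (237, 271, 328 and 223) were in 1 entry with its leftmost kilobase at chr2:26459000-26459999, which also overlaps 0610009E02Rik on the opposite strand, a gene with 8, 3, 8 and 3 gene-named reads. Entries that overlapped no other gene had 32, 38, 40 and 29 reads.

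Notch2 (ENSMUSG00000027878, chromosome 3) had 28, 20, 28 and 12 reads with the leftmost kilobase on an exon and 47, 71, 74 and 61 with it in an intron, or 11.7, 23.6, 21.7 and 20.3 CPM for the latter. Of the intronic reads, 46, 45, 48 and 40 were in 1 entry at chr3:98050000-98050999, so that the other intronic entries together held few reads in the control. For intronic reads the same rule was passed by 68.9% of 7946 genes, and by all 3 members with at least 20 such reads, Notch2, Notch3 and Rbpj. Dll3 (ENSMUSG00000003436, chromosome 7), a divergent Delta-like protein that does not activate receptors on neighbouring cells, had 36, 29, 35 and 39 exonic reads, or 8.97, 9.64, 10.2 and 13.0 CPM, with every interval of the ratio to the control including no change.

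Of the 7 members with gene-named reads, 5 also had position-named reads, and Hes5 and Hey1 had none. The position-named share of Hes1 moved the other way from those of Notch3 and Rbpj. At Hes1 an entry in the last 796 bases of the gene (leftmost kilobase chr16:30067000-30067999) held 142, 142, 202 and 86 reads. With 1 further read, position-named entries made up 19.3%, 8.58%, 11.3% and 6.12% of all reads at Hes1 (Wilson 95% intervals 16.6 to 22.3, 7.32 to 10.03, 9.91 to 12.8 and 4.99 to 7.49). The share was highest in the control, while gene-named Hes1 reads were lowest there. Among 4455 genes with at least 50 gene-named reads in each library, the share was lower in all 3 libraries with Cre mRNA than in the control in 279 (6.26%) and higher in all 3 in 2637 (59.2%). The median share of these genes was 3.17% in the control and 8.70%, 7.93% and 7.59% in the others. With position-named reads added, Hes1 had 736, 1655, 1788 and 1421 reads, and a fit added after seeing the data on counts made this way gave a log2 fold change of 1.34 (SE 0.225, edgeR adjusted p = 0.00157).

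At Rbpj 10, 54, 54 and 41 reads were position-named, or 8.70%, 32.1%, 27.6% and 28.7% of its reads (Wilson 95% intervals 4.79 to 15.3, 25.5 to 39.5, 21.8 to 34.2 and 21.9 to 36.6). Entries with the leftmost kilobase in an Rbpj intron held 6, 35, 35 and 26 reads, or 1.49, 11.6, 10.2 and 8.67 CPM. At Notch3 25, 72, 58 and 39 reads were in position-named entries that overlap no other gene, or 17.9%, 41.9%, 33.5% and 43.8% of these and the gene-named reads. Entries that also overlap Gm17276 on the opposite strand were left out of these shares. With them, Notch3 had 6, 26, 21 and 16 exonic and 26, 71, 53 and 36 intronic position-named reads. Both genes moved up in all 3 libraries with Cre mRNA, as did 59.2% of the 4455 genes. Whole libraries moved the same way: position-named entries held 17.2% of the control's reads and 30.2%, 28.9% and 27.3% of the others. The part of this in the members' values was not tested.

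**Figure D3:**
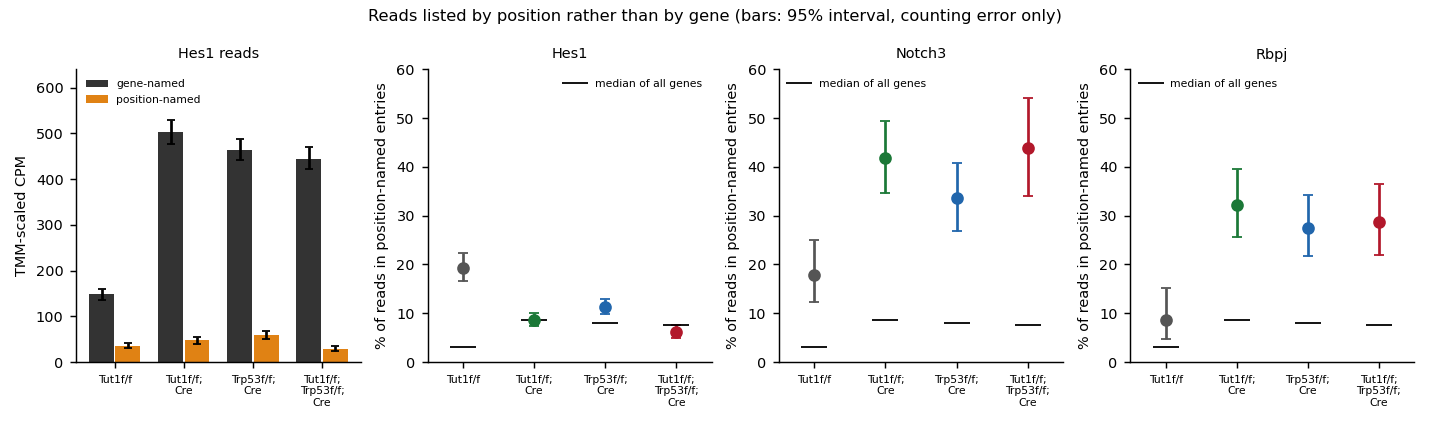
First panel: Hes1 reads in gene-named and position-named entries in TMM-scaled CPM, with 95% Poisson intervals. Other panels: percent of the reads at Hes1, Notch3 and Rbpj that were position-named, in entries that overlap no other gene, with Wilson 95% intervals, and horizontal dashes for the median of 4455 genes. The Hes1 share was 19.3% in the control and between 6.12% and 11.3% in the others, while those of Notch3 and Rbpj were lowest in the control.

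A wider list of 58 pathway genes, grouped by role, had 38 in the table and 33 tested. In the edgeR fit of the 3 libraries with Cre mRNA against the control 1 of the 33 was called higher and 6 lower, against 8.41% and 8.55% of all genes, with a median log2 fold change of 0.06 against 0.01.

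The γ-secretase complex releases the receptor's intracellular part. Its subunit gene Aph1a had 87, 17, 22 and 17 reads and fell by 1.86 on the log2 scale (SE 0.340, edgeR adjusted p = 0.00300). Ncstn, the substrate-binding subunit nicastrin, had 207, 64, 42 and 87 reads and fell by 1.31 (SE 0.353, edgeR adjusted p = 0.0199).

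The subunit genes Psenen and Aph1b were not called. Psenen had 151, 151, 152 and 160 CPM and Aph1b 19.9, 17.9, 24.9 and 21.0 CPM. Poglut1, which glucosylates the receptor's EGF repeats, had 125, 18, 28 and 37 reads and fell by 1.82 (SE 0.352, edgeR adjusted p = 0.00421). The sheddases Adam10 and Adam17, which make the cut before γ-secretase, were not called, with log2 fold changes of 0.22 and 0.23. The calls of Aph1a, Ncstn and Poglut1 were lost without the library labelled as Trp53f/f;Cre, with edgeR adjusted p values of 0.0988 for Aph1a, 0.130 for Ncstn and 0.115 for Poglut1, while the log2 fold changes stayed between -1.93 and -1.04.

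In the nucleus, the corepressor Spen, a partner of RBPJ when Notch is silent, had 16, 56, 49 and 47 reads and a log2 fold change of 2.01 (SE 0.422, edgeR adjusted p = 0.00629). The acetyltransferase gene Kat2a had 52, 9, 10 and 21 reads and fell by 1.59 (SE 0.473, edgeR adjusted p = 0.0309), which DESeq2 did not call (adjusted p = 0.160). Hes6, an HES-family gene that opposes HES1, had 89, 19, 30 and 20 reads and fell by 1.60 (SE 0.340, edgeR adjusted p = 0.00658). Without the library labelled as Trp53f/f;Cre the edgeR adjusted p was 0.0988 for Spen and Hes6 and 0.191 for Kat2a. Maml2, a Mastermind-like coactivator, had 13, 23, 27 and 21 reads and was called higher in all 3 single comparisons with the control (log2 ratios 1.24, 1.29 and 1.11), though not in the edgeR fit (1.21, SE 0.484, adjusted p = 0.0923).

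Fabp7, a radial glia gene that Notch signalling induces, was not called and stood at 9819, 9984, 9567 and 11194 CPM. The highest ratio of the list in the library labelled as Tut1f/f;Trp53f/f;Cre over that labelled as Trp53f/f;Cre was that of Dtx3, which encodes a Deltex ubiquitin ligase, at log2 1.34 (interval 0.14 to 2.66) with 9 and 20 reads. In the library labelled as Tut1f/f;Trp53f/f;Cre over Tut1f/f;Cre the lowest ratio was that of the Fringe gene Rfng, at log2 -0.85 (interval -1.48 to -0.24). Rfng had 104, 65, 60 and 36 reads and was called lower than the control in the last library only (log2 -1.11). None of the 4 ligand-endocytosis genes was named in the table, although 1518 reads lay at Mib1 in position-named entries.

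**Figure D4:**
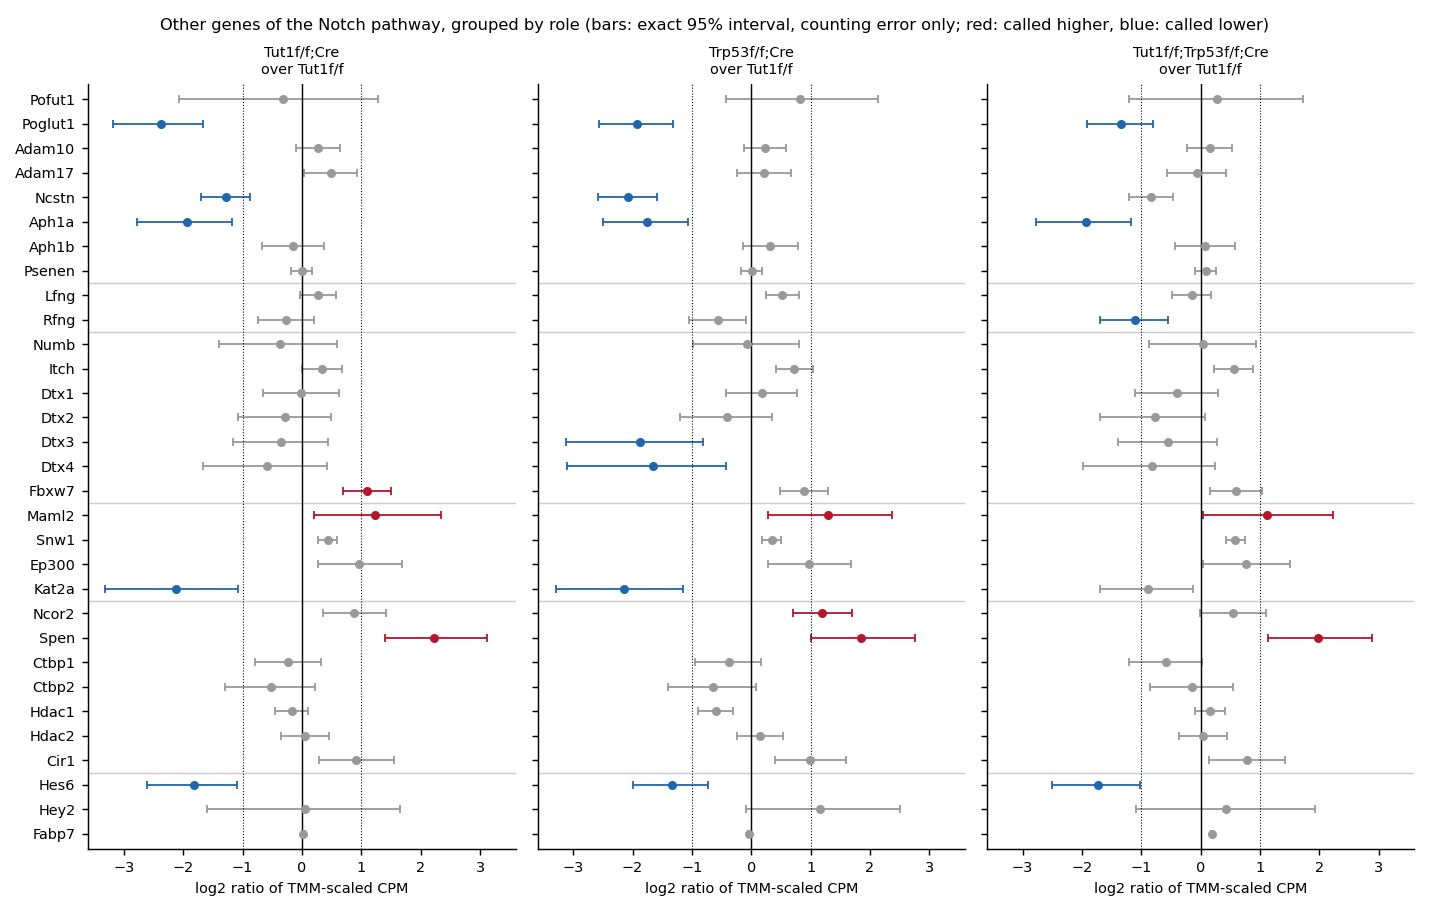
Log2 ratio of TMM-scaled CPM to the control for 31 of the 33 tested genes of the wider list in the 3 libraries with Cre mRNA, with exact 95% intervals for counting error; grey lines part the roles and dotted lines mark a 2-fold change. Poglut1, Aph1a and Hes6 were called lower in all 3 panels, and Spen and Maml2 higher in all 3.

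The pattern of Hes1 over the 4 libraries was set beside 6687 other genes with a mean of at least 10 CPM, by the Euclidean distance of centred log2 CPM with a pseudocount of 0.5. Smarcc1, a subunit of the SWI/SNF chromatin remodeller, was nearest at a distance of 0.0403 and had 138, 343, 370 and 313 reads. Nsrp1, a nuclear speckle splicing regulator, followed at 0.0888 with 118, 328, 341 and 285 reads, and Ppfia1, a liprin, at 0.102 with 69, 176, 182 and 168 reads. Among the members Jag1 ranked 468, Rbpj 1313 and Hes5 2900. With 4 libraries that share 1 control, likeness here is mostly that of a single low library.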

How the data were processed

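Nanopore cDNA libraries of neural stem cells, 1 per group, were analysed from 1 table in which the authors deposited whole-number read counts per isoform entry, not normalized. The submitters' processing notes name the build mm10. The study names minimap2 and FLAIR for its long reads of embryonic tissue. The tool, strand handling and filters behind this table were not given in the sources used here. Of 255164 entries 46637 named a gene, and their counts were summed per Ensembl identifier. The 208527 position-named entries (17.2% to 30.2% of reads) entered neither library sizes nor tests and were placed by GENCODE M21 (GRCm38) for description.

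The tests on gene counts used edgeR 4.0.16 in R 4.3.3 (TMM scaling, default filter, quasi-likelihood F test), adjusted by Benjamini-Hochberg over 9882 genes, with DESeq2 1.42.0 as the alternative. A standard error was taken as the fitted log2 change divided by the root of its F statistic. The spread was pooled across genes almost fully in the Tut1 and Trp53 status fits (9882 total degrees of freedom) and only in part in the Cre mRNA fit (13.2), and p-values measure the spread between these libraries. Other alternatives were RLE scaling, library totals, no expression filter, plain Ensembl transcripts only, a 1.5-fold threshold, stricter usage limits and each library with Cre mRNA left out. Usage was tested for isoforms of at least 10 reads in genes of at least 20, and by Tut1 status with diffSpliceDGE (0 of 21738 called; 224 at an unadjusted p under 0.05). On simulated data with 200 genes changed 4-fold the Cre mRNA fit called 179 genes, 175 of them changed, the Tut1 status fit 53 (52 changed) and the Trp53 status fit 76 (70 changed). With 200 genes changed 8-fold the Cre mRNA fit called 174 (163 changed), and in a separate run with none changed it called 0 of 9595.

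The text names the members, isoforms with at least 10% of a member's reads, and genes of the wider list that were called in a fit over 4 libraries, called in the same direction in all 3 ratios to the control, or most extreme in a ratio, with family neighbours for context; 2 genes of that list are not reported here. The members and lists were chosen with earlier results of these data known.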

Additional observations from a re-analysis of the deposited data

Results flagged for a closer look

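Position-named entries lie outside the gene counts. The values below stood above the control by 95% Poisson intervals of the CPM that do not overlap. Among genes with at least 20 such reads over the 4 libraries, this held in at least 1 library with Cre mRNA for 45.2% of 9378 genes by exonic reads and for 68.9% of 7946 genes by intronic reads. With the leftmost kilobase on an exon, Notch1 had 103 CPM in Tut1f/f;Cre and 108 CPM in the library labelled as Trp53f/f;Cre against 67.3 CPM in the control. Notch3 had 8.64 and 6.15 CPM in the same libraries against 1.49 CPM. Hes1 had 59.1 CPM in the library labelled as Trp53f/f;Cre against 35.4 CPM. Rbpj had 6.31 CPM in Tut1f/f;Cre, 5.56 CPM in the library labelled as Trp53f/f;Cre and 5.0 CPM in the library labelled as Tut1f/f;Trp53f/f;Cre against 0.996 CPM.

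With the leftmost kilobase in an intron, Notch2 had 23.6 CPM in Tut1f/f;Cre and 21.7 CPM in the library labelled as Trp53f/f;Cre against 11.7 CPM in the control. Notch3 had 23.6 and 15.5 CPM in these libraries against 6.48 CPM, and part of its exonic and intronic entries also overlaps Gm17276 on the opposite strand. Rbpj had 11.6, 10.2 and 8.67 CPM in the 3 libraries with Cre mRNA against 1.49 CPM. Position-named entries at a single gene held 5.39% of all reads in the control and 8.90%, 9.02% and 8.26% in the others with the leftmost kilobase on an exon, and 5.42% against 14.3%, 13.0% and 12.8% with it in an intron. The part of this shift in the members' values was not tested.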

How the results depend on the processing

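No paired analysis was possible because each group was a single library. Of 319 member values recomputed under an alternative, 305 kept their direction and call (fits) or stayed inside the interval of the reported ratio. For ratios, dropping the expression filter or using the 1.5-fold threshold leaves a member's value as it was, so those values were unchanged by construction. Plain transcripts gave no value for Hes1, Notch3 or Jag1 in the fits, so the Hes1 call was not checked there. The count of genes called for Cre mRNA status was 980 with DESeq2 and 1095 with plain Ensembl transcripts only, and 0 to 2393 when 1 library with Cre mRNA was left out, with 0 without the library labelled as Trp53f/f;Cre. For Trp53 status it was 2 without the filter, 0 with plain transcripts and 8 with position-named reads added, which gave 2 for Tut1 status. A 1.5-fold threshold raised the called ratios to 4177, 4377 and 3447 against the control, and to 1827 and 1164 for the library labelled as Tut1f/f;Trp53f/f;Cre over those labelled as Trp53f/f;Cre and Tut1f/f;Cre. Usage calls fell to 874, 941, 606 and 86 at 20 points. With plain transcripts they were 861, 924 and 684 in the comparisons with the control. The isoforms tested there were 6692, 6791 and 6864, against 18376, 18549 and 18845, so the called share was higher with plain transcripts. Small log2 fold changes for Cre mRNA status changed sign, none of them called: Notch3 was 0.064 with library totals and 0.021 with position-named reads, Dll1 -0.074 and Hes5 -0.090 with position-named reads, and Hey1 0.085 with library totals and 0.029 with plain transcripts. Leaving out 1 library gave ranges of -0.20 to 0.21 for Notch3, -0.17 to 0.21 for Dll1, -0.0017 to 0.10 for Hes5 and -0.19 to 0.13 for Hey1. Leaving out a library, leaving out CT010467.1 and adding position-named reads were chosen after seeing the data. The causes were not tested. Depth limits Jag1, Notch2 and Dll3 most, with at most 52 gene-named or exonic reads in any library.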
